A study of Homo sapiens with 10 samples.

Results

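The snoRNA host lncRNA genes are long noncoding RNA genes whose introns carry small nucleolar RNAs or their Cajal body relatives. All genes of chromosomes 1 to 22 named SNHG with a number were taken from the GENCODE annotation on hg19 (GRCh37), together with GAS5, ZFAS1 and EPB41L4A-AS1. This gave 31 genes of the 37451 lncRNA and protein-coding genes on these chromosomes, and all 31 were annotated as lncRNA. The data are ChIP-seq peak lists of HCT116 cells, an established colorectal carcinoma line that the labels call endothelial and that is of epithelial origin, with no treatment or genetic change named. Each antibody had 1 library, and 5 of the 10 libraries were used, with antibodies to total RNA polymerase II (Pol II), KAP1, Larp7, Hexim1 and Cdk9. The series asks how KAP1 and the 7SK ribonucleoprotein relate to Pol II at promoters. On chromosomes 1 to 22 the lists held 91692 Pol II peaks, 60660 KAP1 peaks, 182444 Larp7 peaks, 227631 Hexim1 peaks and 118666 Cdk9 peaks.

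SnoRNAs guide the chemical modification of ribosomal and spliceosomal RNA, and most human ones are cut out of introns of host genes after splicing. The spliced exons of many noncoding hosts have no conserved protein product, and several of these RNAs, GAS5 among them, are known to be degraded when they are translated. Host promoters often belong to the 5′ terminal oligopyrimidine (TOP) class, in which the transcript begins with a C followed by a run of pyrimidines, as in ribosomal protein genes. Shortly after the start of a gene Pol II pauses, and the kinase P-TEFb, of which Cdk9 is the catalytic subunit, releases it. The 7SK ribonucleoprotein holds P-TEFb inactive: Larp7 is its stable RNA-binding protein and Hexim1 is the inhibitor of the kinase. KAP1 (TRIM28) is a chromatin-bound co-regulator known mainly for silencing through zinc finger proteins.

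The genes were between 540 and 441754 bp long, with a median of 6851 bp, and lay on 15 chromosomes. RefSeq placed at least 1 snoRNA inside 30 of the 31 genes, the exception being SNHG27. A single snoRNA was held by 16 genes and 2 or more by 14. GAS5 held 11 and SNHG1 held 9, while SNHG14, the imprinted host of the SNORD115 and SNORD116 clusters, held 84 of the 150 in all. These RefSeq counts did not require the strand of the host. GENCODE placed a snoRNA, SNORA70, inside SNHG27 on its strand.

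The start regions of 9 of these genes with a TATAA motif or a pyrimidine run at or near the start are printed here. SNHG11, which also holds TATAA, is not printed. Each sequence runs from 40 bases before the start of the canonical transcript to 39 bases past it, 5′ to 3′ on the strand of the gene, in hg19. Capitals mark TATAA and the run of C and T that holds CTTT. The regions are GAS5 on chr1:173837088-173837167 (-), ZFAS1 on chr20:47895139-47895218 (+), SNHG5 on chr6:86388427-86388506 (-), SNHG29 on chr17:16342311-16342390 (+), SNHG25 on chr17:62223257-62223336 (+), SNHG16 on chr17:74553817-74553896 (+), SNHG7 on chr9:139622597-139622676 (-), SNHG9 on chr16:2014856-2014935 (+) and SNHG19 on chr16:2205367-2205446 (-).
GAS5: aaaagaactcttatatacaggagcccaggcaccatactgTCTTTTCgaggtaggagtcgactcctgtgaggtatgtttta
ZFAS1: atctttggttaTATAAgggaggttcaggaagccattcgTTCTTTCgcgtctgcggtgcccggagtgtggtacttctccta
SNHG5: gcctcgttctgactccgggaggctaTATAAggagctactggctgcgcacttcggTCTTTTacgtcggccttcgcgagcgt
SNHG29: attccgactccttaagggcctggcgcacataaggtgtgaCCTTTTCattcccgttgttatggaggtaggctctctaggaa
SNHG25: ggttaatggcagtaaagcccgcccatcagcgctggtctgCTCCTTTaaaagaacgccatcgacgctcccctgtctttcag
SNHG16: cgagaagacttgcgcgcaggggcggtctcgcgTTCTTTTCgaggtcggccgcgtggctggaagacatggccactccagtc
SNHG7: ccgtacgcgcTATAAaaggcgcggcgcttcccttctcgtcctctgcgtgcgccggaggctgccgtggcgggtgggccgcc
SNHG9: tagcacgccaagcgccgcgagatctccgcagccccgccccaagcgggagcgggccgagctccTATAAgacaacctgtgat
SNHG19: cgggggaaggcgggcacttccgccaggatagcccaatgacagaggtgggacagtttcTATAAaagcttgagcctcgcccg

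The start regions of the 3 genes that had Pol II but no KAP1 peak are printed for comparison with these. They are SNHG8 on chr4:119199823-119199902 (+), SNHG21 on chr15:83419284-83419363 (+) and SNHG30 on chr17:33895095-33895174 (+). SNHG8 also holds TATAA.
SNHG8: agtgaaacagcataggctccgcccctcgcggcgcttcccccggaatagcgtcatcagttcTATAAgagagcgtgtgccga
SNHG21: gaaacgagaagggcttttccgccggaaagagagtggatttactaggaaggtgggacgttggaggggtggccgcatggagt
SNHG30: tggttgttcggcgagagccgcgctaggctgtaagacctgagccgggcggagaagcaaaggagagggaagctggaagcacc

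A TOP start, defined as a C within 5 bases of the canonical start with at least 5 C or T after it, was found in GAS5, SNHG29 and SNHG25. These 3 of 31 genes made up 9.68% (exact 95% interval 2.04 to 25.8), against 20.1% of coding snoRNA hosts, 11.2% of coding genes and 10.8% of other lncRNA genes. In SNHG5 and SNHG16 the C lay more than 5 bases from the annotated start, and in ZFAS1 fewer than 5 C or T followed it. TATAA, searched on the strand of the gene between 60 bases before and 40 bases after the start, was present in 7 of 31 genes, namely SNHG8, SNHG5, SNHG7, SNHG9, SNHG19, SNHG11 and ZFAS1. It lay past the annotated start in SNHG8, SNHG9 and SNHG19 and before it in the others. The share was 22.6% (9.59 to 41.1), against 5.28% of coding snoRNA hosts, 7.35% of coding genes and 7.34% of other lncRNA genes. CTTT, searched between 10 bases before and 30 after the start, was present in 6 genes, or 19.4%, against 18.3% of coding snoRNA hosts, 11.6% of coding genes and 18.2% of other lncRNA genes. Both TATAA and CTTT were chosen after the sequences had been seen. TATAAA, searched only between 45 and 16 bases before the start, was present in 2 of 31 genes, or 6.45% (0.791 to 21.4). Its share was 2.51% of coding snoRNA hosts, 3.97% of coding genes and 1.46% of other lncRNA genes. CCGGAAG, an ETS motif searched within 250 bases on both strands, was present in 9.68% of the hosts, against 16.8% of coding genes and 6.68% of other lncRNA genes. CACGTG, an E-box that reads the same on both strands, lay within 250 bases of the start in GAS5, SNHG4, SNHG5, SNHG26, SNHG7, SNHG9, SNHG30 and SNHG25. These 8 genes were 25.8% (11.9 to 44.6) of the hosts, against 16.3% of coding snoRNA hosts, 10.9% of coding genes and 8.12% of other lncRNA genes. GGGCGG, a GC box searched on both strands in the same 250 bases, was present in 74.2% of the hosts, against 69.6% of coding genes and 28.4% of other lncRNA genes. Median GC content there was 58.7% in the hosts, against 64.7% in coding genes and 48.9% in other lncRNA genes. The median ratio of observed to expected CpG was 0.786 in the hosts, against 0.779 in coding genes and 0.289 in other lncRNA genes. Most hosts have Pol II, and among genes with Pol II this ratio was 0.835 in coding genes and 0.690 in other lncRNA genes. Median GC content was then 67.9% and 61.5%, and the GC box share 84.2% and 62.7%. The hosts were thus closer to lncRNA genes with Pol II than to all other lncRNA genes. A match describes letters only.

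In the full lists 24 of the 31 host 5′ ends carried peaks of all 5 factors, a share that depended on the peak threshold. A factor was counted at a gene when a peak overlapped the annotated 5′ end or the 1 kb on either side of it. Pol II was present at 28 of 31 hosts, or 90.3% (exact 95% interval 74.2 to 98.0), against 71.8% of coding genes and 33.0% of other lncRNA genes. KAP1 was present at 25 hosts, or 80.6% (62.5 to 92.5), against 66.2% of coding genes and 30.8% of other lncRNA genes. Among peaks with a −log10 q of 5 or more the direction against coding genes turned, with KAP1 at 19.4% of hosts, against 25.5% of coding genes and 8.64% of other lncRNA genes. Larp7 was present at 28 hosts (90.3%), against 76.4% of coding genes and 44.6% of other lncRNA genes. Its direction against coding genes turned under both stricter peak sets. At a −log10 q of 5 or more Larp7 was at 45.2% of hosts, against 49.3% of coding genes and 23.2% of other lncRNA genes. With the 20000 strongest peaks of each list it was at 25.8% of hosts, against 32.1% and 14.5%. Hexim1 was present at 30 hosts, or 96.8% (83.3 to 99.9), against 79.9% of coding genes and 48.2% of other lncRNA genes, and SNHG21 was the exception. Cdk9 was present at 25 hosts (80.6%), against 70.5% of coding genes and 36.4% of other lncRNA genes. Peaks of all 5 lists stood at 24 hosts, or 77.4% (58.9 to 90.4), against 61.5% of coding genes and 26.2% of other lncRNA genes. At that stricter q all 5 stood at 3 hosts (9.68%), against 9.59% of coding genes and 2.97% of other lncRNA genes. With the 20000 strongest peaks of each list all 5 stood at 6 hosts (19.4%), against 17.0% of coding genes and 5.63% of other lncRNA genes. In the full lists every host had a peak of at least 1 list, whereas 17.2% of coding genes and 45.7% of other lncRNA genes had none. This depended on the settings. SNHG14, SNHG20 and SNHG27 had no peak of any list under either stricter peak set. SNHG14 and SNHG20 had none with a 500 bp window. The share of other genes with no peak was not counted under those settings. Below 5 lists, SNHG30 had 4, SNHG1 and SNHG8 had 3, SNHG20 and SNHG27 had 2, and SNHG14 and SNHG21 had 1. No peak at a host 5′ end was shared by 2 hosts, so the 31 genes count separately. With 1 library per antibody no test was possible, the intervals cover counting error only, and a peak cannot tell weak binding in all cells from strong binding in some.

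**Figure D1:**
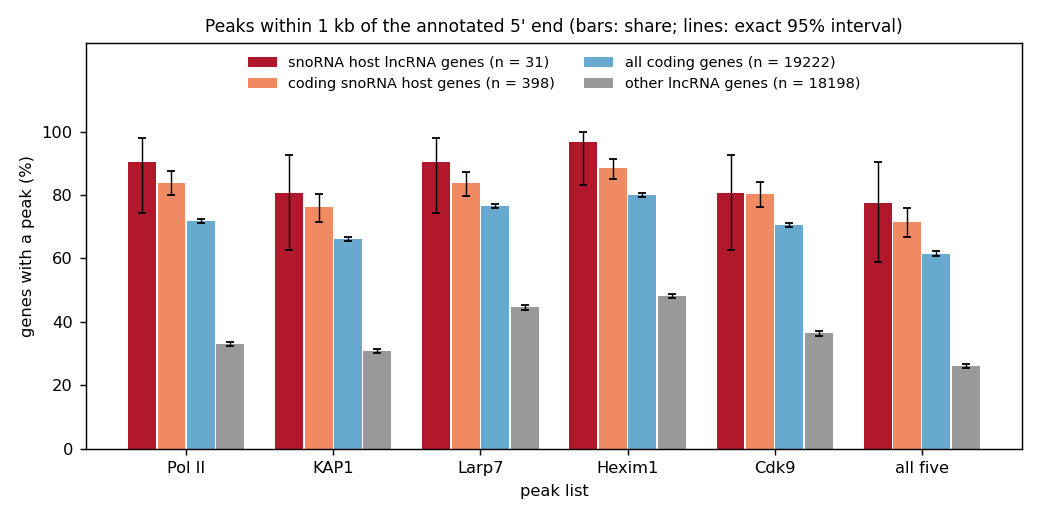
Share of genes (vertical axis, percent) with a peak within 1 kb of the annotated 5′ end, for each peak list and for all 5 lists together (horizontal axis). Bars are the 31 snoRNA host lncRNA genes, 398 coding snoRNA hosts, 19222 coding genes and 18198 other lncRNA genes, lines are exact 95% intervals, and the hosts stand between 77.4% and 96.8% while other lncRNA genes stand between 26.2% and 48.2%.

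In the full lists the hosts and the comparison groups were closer once Pol II was present. Among the 28 hosts with Pol II, KAP1 was present at 25, or 89.3% (71.8 to 97.7), against 88.1% of such coding genes and 82.0% of such other lncRNA genes. Under the stricter peak sets the share was lower at hosts than at coding genes, with 21.4% of hosts against 36.3% of coding genes at a −log10 q of 5 or more, and 55.6% of hosts against 65.4% of coding genes with 20000 peaks per list. Cdk9 was likewise present at 25 of the 28 (89.3%), against 91.5% of such coding genes and 87.5% of such other lncRNA genes. All 5 lists were present at 24 of the 28 (85.7%), against 85.6% of such coding genes and 79.3% of such other lncRNA genes. Coding genes that carry a snoRNA on their own strand in GENCODE, 398 in number, had Pol II at 83.9%, KAP1 at 76.1%, Cdk9 at 80.4% and all 5 lists at 71.6%. These coding shares all lay inside the intervals of the lncRNA hosts. Of 89 other lncRNA genes with such a snoRNA, 48.3% had Pol II, 42.7% had KAP1 and 37.1% had all 5 lists. Those 3 shares lay below the lower ends of the host intervals.

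The Pol II peaks of the hosts ranked high in their list and the KAP1 peaks did not. The deposited fold of a peak over its background is the authors' value and can be compared only within a list, so each was also ranked among the peaks of coding promoters. The highest Pol II peak at a host had a median fold of 87.7 (range 6.85 to 166), against 39.6 at coding genes and 21.7 at other lncRNA genes. Its median percentile among coding promoters with Pol II was 85.3, and 16 of 28 hosts were in the top quintile. KAP1 folds at hosts had a median of 4.40 (range 3.31 to 6.89), against 4.84 at coding genes and 4.59 at other lncRNA genes. The median KAP1 percentile was 32.1, with 1 of 25 hosts in the top quintile and 7 in the bottom quintile. Larp7 folds had a median of 4.44 (percentile 35.5), against 4.83 at coding genes. Hexim1 folds had a median of 7.26 (percentile 54.8), against 6.97 at coding genes. Cdk9 folds had a median of 4.67 (percentile 53.1), against 4.60 at coding genes. At coding snoRNA hosts the median percentile of the Pol II peak was 61.7 and that of the KAP1 peak 52.3, and the Larp7, Hexim1 and Cdk9 peaks had medians of 44.6, 53.1 and 56.1.

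The largest Pol II folds were at SNHG9 (166), SNHG29 (156), SNHG12 (138) and SNHG7 (122). Cdk9 had the same 4 genes on top, with folds of 7.98 at SNHG29, 7.31 at SNHG9, 6.84 at SNHG7 and 6.29 at SNHG12. The SNHG12 Pol II peak of fold 138 lay 819 to 1842 bp past the 5′ end, and the peak at 12 to 603 bp had a fold of 12.7. The SNHG12 KAP1 peak lay 902 to 1613 bp past the 5′ end and was lost with a 500 bp window. Larp7 was highest at SNHG29 (6.85), SNHG18 (6.53), SNHG7 (6.25) and SNHG9 (6.20). KAP1 was highest at SNHG10 (6.89), SNHG7 (5.68), SNHG32 (5.39) and SNHG11 (5.32). Hexim1 was highest at SNHG11 (13.8), SNHG26 (13.1), GAS5 (11.7) and EPB41L4A-AS1 (10.1). SNHG7 was thus among the 4 highest hosts in 4 of the 5 lists, and its Hexim1 fold was 9.61. SNHG18 went the other way, with the lowest Pol II fold of the 28 hosts (6.85, percentile 12.4) and a Larp7 percentile of 94.3.

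GAS5, known for its RNA accumulating in growth-arrested cells, had a Pol II fold of 75.7, a KAP1 fold of 4.16, a Larp7 fold of 4.27, a Hexim1 fold of 11.7 and a Cdk9 fold of 5.19. Its KAP1 percentile was 22.7 and its Hexim1 percentile 96.5. ZFAS1, which lies antisense to the start of ZNFX1 and hosts the SNORD12 family, had a Pol II fold of 87.7, a KAP1 fold of 4.40, a Larp7 fold of 5.23, a Hexim1 fold of 8.23 and a Cdk9 fold of 4.67. Its KAP1 percentile was 32.1, the median of the hosts. EPB41L4A-AS1, host of SNORA13, had a Pol II fold of 87.7, a KAP1 fold of 3.99, a Larp7 fold of 3.75, a Hexim1 fold of 10.1 and a Cdk9 fold of 5.26. These 3 genes shared high Pol II and Hexim1 ranks and KAP1 ranks in the lower part of the coding range.

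The other hosts with all 5 lists follow with the fold of each list, those of higher Pol II first. SNHG9, host of SNORA78, had folds of 166 (Pol II), 4.86 (KAP1), 6.20 (Larp7), 8.85 (Hexim1) and 7.31 (Cdk9). SNHG29, host of SNORD49A, SNORD49B and SNORD65, had folds of 156 (Pol II), 5.01 (KAP1), 6.85 (Larp7), 6.73 (Hexim1) and 7.98 (Cdk9). SNHG12, host of SNORA44 and SNORD99, had folds of 138 (Pol II), 5.26 (KAP1), 4.90 (Larp7), 8.67 (Hexim1) and 6.29 (Cdk9). At these 3 genes the Pol II and Cdk9 folds were at the top of the hosts while their KAP1 percentiles were between 50.8 and 66.3. SNHG26, host of SNORD93, had folds of 120 (Pol II), 5.14 (KAP1), 4.89 (Larp7), 13.1 (Hexim1) and 4.96 (Cdk9). SNHG6, host of SNORD87, had folds of 116 (Pol II), 5.03 (KAP1), 4.41 (Larp7), 7.74 (Hexim1) and 4.72 (Cdk9). SNHG15, host of SNORA9, had folds of 116 (Pol II), 3.68 (KAP1), 3.07 (Larp7), 6.06 (Hexim1) and 2.99 (Cdk9). SNHG15 had almost the same Pol II fold as SNHG26 and SNHG6 and the lowest Cdk9 fold of all hosts. SNHG32, host of SNORD48 and SNORD52, had folds of 110 (Pol II), 5.39 (KAP1), 5.41 (Larp7), 5.49 (Hexim1) and 3.76 (Cdk9). SNHG10, host of SCARNA13, had folds of 102 (Pol II), 6.89 (KAP1), 5.74 (Larp7), 9.59 (Hexim1) and 5.66 (Cdk9). SNHG11, host of SNORA60, had folds of 96.8 (Pol II), 5.32 (KAP1), 4.47 (Larp7), 13.8 (Hexim1) and 4.60 (Cdk9). These 3 were, with SNHG7, the hosts of highest KAP1 fold. SNHG4, host of SNORA74A, had folds of 103 (Pol II), 3.58 (KAP1), 3.52 (Larp7), 5.21 (Hexim1) and 5.36 (Cdk9). SNHG3, host of SNORA73A and SNORA73B, had folds of 90.4 (Pol II), 3.31 (KAP1), 3.73 (Larp7), 4.06 (Hexim1) and 3.31 (Cdk9). SNHG25, host of SNORD104, had folds of 95.8 (Pol II), 4.18 (KAP1), 4.35 (Larp7), 7.41 (Hexim1) and 4.77 (Cdk9). SNHG3 had the lowest KAP1 fold of all hosts beside a Pol II fold above the median.

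Lower on the Pol II scale stood 8 hosts with all 5 lists. SNHG19, host of SNORD60, had folds of 79.3 (Pol II), 5.16 (KAP1), 3.82 (Larp7), 7.15 (Hexim1) and 4.96 (Cdk9). SNHG5, host of SNORD50A and SNORD50B, had folds of 77.3 (Pol II), 3.90 (KAP1), 4.54 (Larp7), 9.28 (Hexim1) and 4.20 (Cdk9). SNHG31, host of SNORA70I, had folds of 71.3 (Pol II), 4.38 (KAP1), 4.74 (Larp7), 9.04 (Hexim1) and 4.05 (Cdk9). SNHG5 and SNHG31 had Hexim1 folds above 9 and KAP1 folds below the coding median. SNHG16, host of SNORD1A to SNORD1C, had folds of 55.7 (Pol II), 4.14 (KAP1), 3.92 (Larp7), 6.38 (Hexim1) and 4.64 (Cdk9). SNHG28 had folds of 54.7 (Pol II), 4.37 (KAP1), 4.82 (Larp7), 7.37 (Hexim1) and 4.09 (Cdk9). SNHG17, host of SNORA71A to SNORA71D, had folds of 50.2 (Pol II), 4.68 (KAP1), 3.27 (Larp7), 7.66 (Hexim1) and 3.92 (Cdk9). Among these 3 the Pol II folds were between 50.2 and 55.7 and the KAP1 percentiles between 22.3 and 43.6. SNHG22, host of SCARNA17, had folds of 24.8 (Pol II), 3.85 (KAP1), 4.48 (Larp7), 5.28 (Hexim1) and 3.97 (Cdk9). SNHG18, host of SNORD123, had folds of 6.85 (Pol II), 4.87 (KAP1), 6.53 (Larp7), 6.21 (Hexim1) and 4.55 (Cdk9). SNHG18 was the only one of the 8 with a Larp7 fold above 5.

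**Figure D2:**
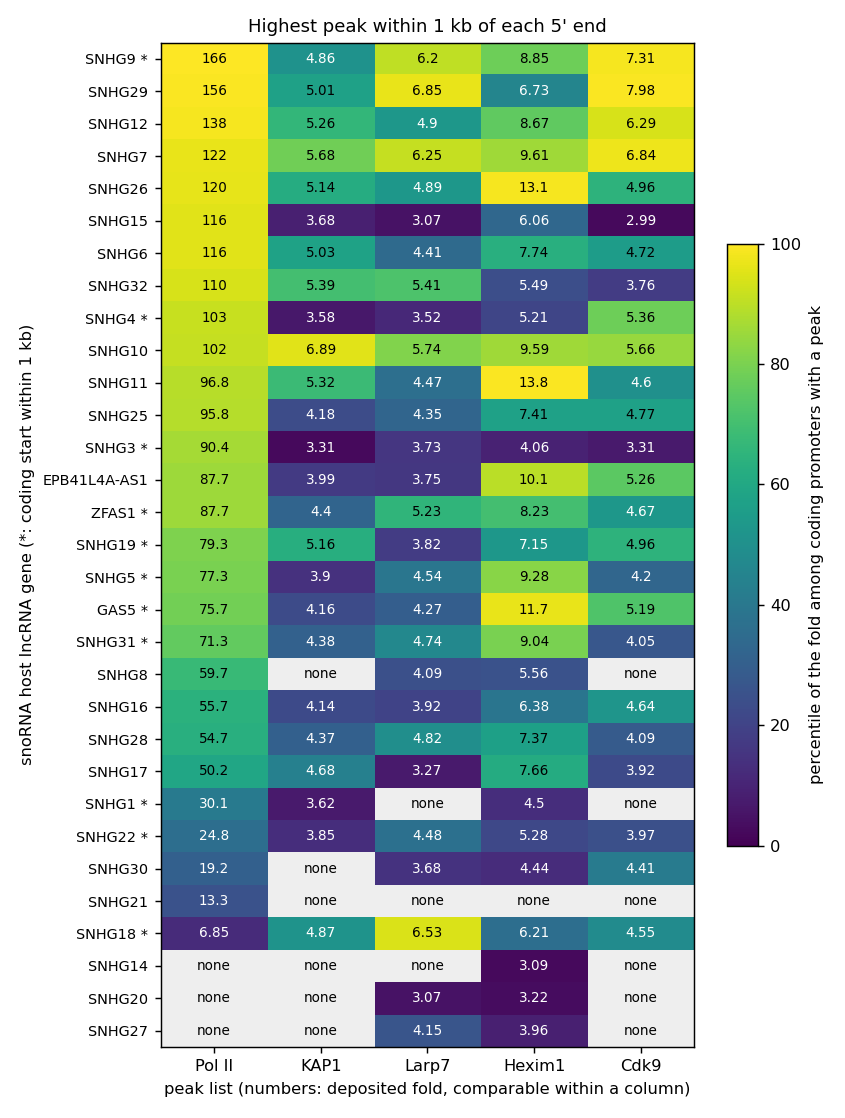
Deposited fold of the highest peak within 1 kb of the 5′ end (numbers in the cells) for each host gene (rows, ordered by Pol II fold) and peak list (columns), with an asterisk for genes with a coding start within 1 kb. Colour is the percentile of that fold among coding promoters with a peak in the same list, and the Pol II column, with 16 of 28 genes in the top quintile, is brighter than the KAP1 column, with 1 of 25.

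At high Pol II folds the other factors were present at the hosts and ranked lower than at coding genes. In the top quintile of coding promoters by Pol II fold (77.8 or more), all 16 hosts had KAP1, Larp7, Hexim1 and Cdk9, and coding genes of that quintile had KAP1 at 97.9%. The median KAP1 percentile there was 57.3 at hosts, against 70.0 at coding genes and 66.5 at other lncRNA genes. The Larp7 percentile was 44.6 at hosts, against 60.5 at coding genes. The Hexim1 percentile was 66.7 at hosts, against 78.0 at coding genes, and the Cdk9 percentile was 64.7 at hosts, against 74.7 at coding genes. All 4 medians were lower at the hosts in this quintile. In the next quintile down, 5 of 6 hosts had KAP1 and 5 of 6 had Cdk9, against 95.2% and 98.0% of coding genes. The 5 hosts with KAP1 there had a median KAP1 percentile of 22.7, against 60.3 at coding genes with KAP1.

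KAP1 was missing within 1 kb of 6 hosts (SNHG8, SNHG14, SNHG20, SNHG21, SNHG27 and SNHG30) and Cdk9 was missing at 6 (SNHG1, SNHG8, SNHG14, SNHG20, SNHG21 and SNHG27). Both were missing at 5, and SNHG30 lacked KAP1 while SNHG1 lacked Cdk9. KAP1 and Cdk9 were each present at 80.6% of hosts, against 66.2% and 70.5% of coding genes. Among genes with Pol II each was present at 89.3% of hosts, against 88.1% and 91.5% of coding genes. In the full lists the absences were thus near or below those of coding genes. How often both are missing was counted for hosts only. SNHG14, SNHG20 and SNHG27 lacked Pol II too, which leaves 4 hosts with Pol II and without one of these factors. SNHG8, host of SNORA24 (chr4:119199858-119206471), had the highest Pol II fold of them, 59.7 (percentile 67.2), with a Larp7 fold of 4.09 and a Hexim1 fold of 5.56. The nearest KAP1 peak lay 12681 bp upstream of it and the nearest Cdk9 peak 12723 bp upstream. SNHG30, host of SNORD7 (chr17:33895069-33901919), had a Pol II fold of 19.2, a Larp7 fold of 3.68, a Hexim1 fold of 4.44 and a Cdk9 fold of 4.41, and its nearest KAP1 peak lay 10321 bp downstream. SNHG21, host of SCARNA15 (chr15:83419316-83425958), had a Pol II fold of 13.3 and no other peak in the window. Its nearest Larp7, Hexim1 and Cdk9 peaks lay 1152, 1145 and 1231 bp upstream, just outside the window, and its nearest KAP1 peak lay 40356 bp upstream. SNHG1, with the SNORD22 and SNORD25 to SNORD31 group in its introns (chr11:62619450-62623425), had a Pol II fold of 30.1, a KAP1 fold of 3.62 and a Hexim1 fold of 4.50, with the nearest Larp7 peak 1152 bp upstream and the nearest Cdk9 peak 6345 bp downstream.

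The 3 hosts without Pol II at the annotated 5′ end differed in what stood nearby. SNHG20, host of SCARNA16 (chr17:75082798-75095984), had a Larp7 fold of 3.07 and a Hexim1 fold of 3.22 there, and a Pol II peak of fold 37.0 lay 1947 bp downstream. SNHG27 (chr4:132648742-132712647) had a Larp7 fold of 4.15 and a Hexim1 fold of 3.96, with a KAP1 peak 1641 bp and a Cdk9 peak 1667 bp downstream. SNHG14 (chr15:25223730-25665483) had a Hexim1 fold of 3.09 alone, with the nearest Pol II peak 22037 bp and the nearest KAP1 peak 18028 bp upstream. The canonical start of SNHG14 lies 214730 bp into the annotated gene, the only one over 1 kb from its 5′ end. When the start of any annotated transcript counted, SNHG20 gained Pol II, SNHG27 gained Pol II, KAP1 and Cdk9, and SNHG14 gained Pol II, KAP1, Larp7 and Cdk9. SNHG14 has 111 annotated starts, SNHG27 has 16 and SNHG20 has 12, so this choice searched many windows per gene and makes gains likely. At the canonical start alone SNHG14 gained KAP1 and Larp7, lost Hexim1 and still had no Pol II. Neither counting any transcript start nor a window of 2 kb gave KAP1 to SNHG8, SNHG20, SNHG21 or SNHG30. TATAA was present in 1 of the 7 hosts without all 5 lists, against 6 of the 24 with them, and the median GC content was 58.1% in these 7 and 60.3% in the 24.

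**Figure D3:**
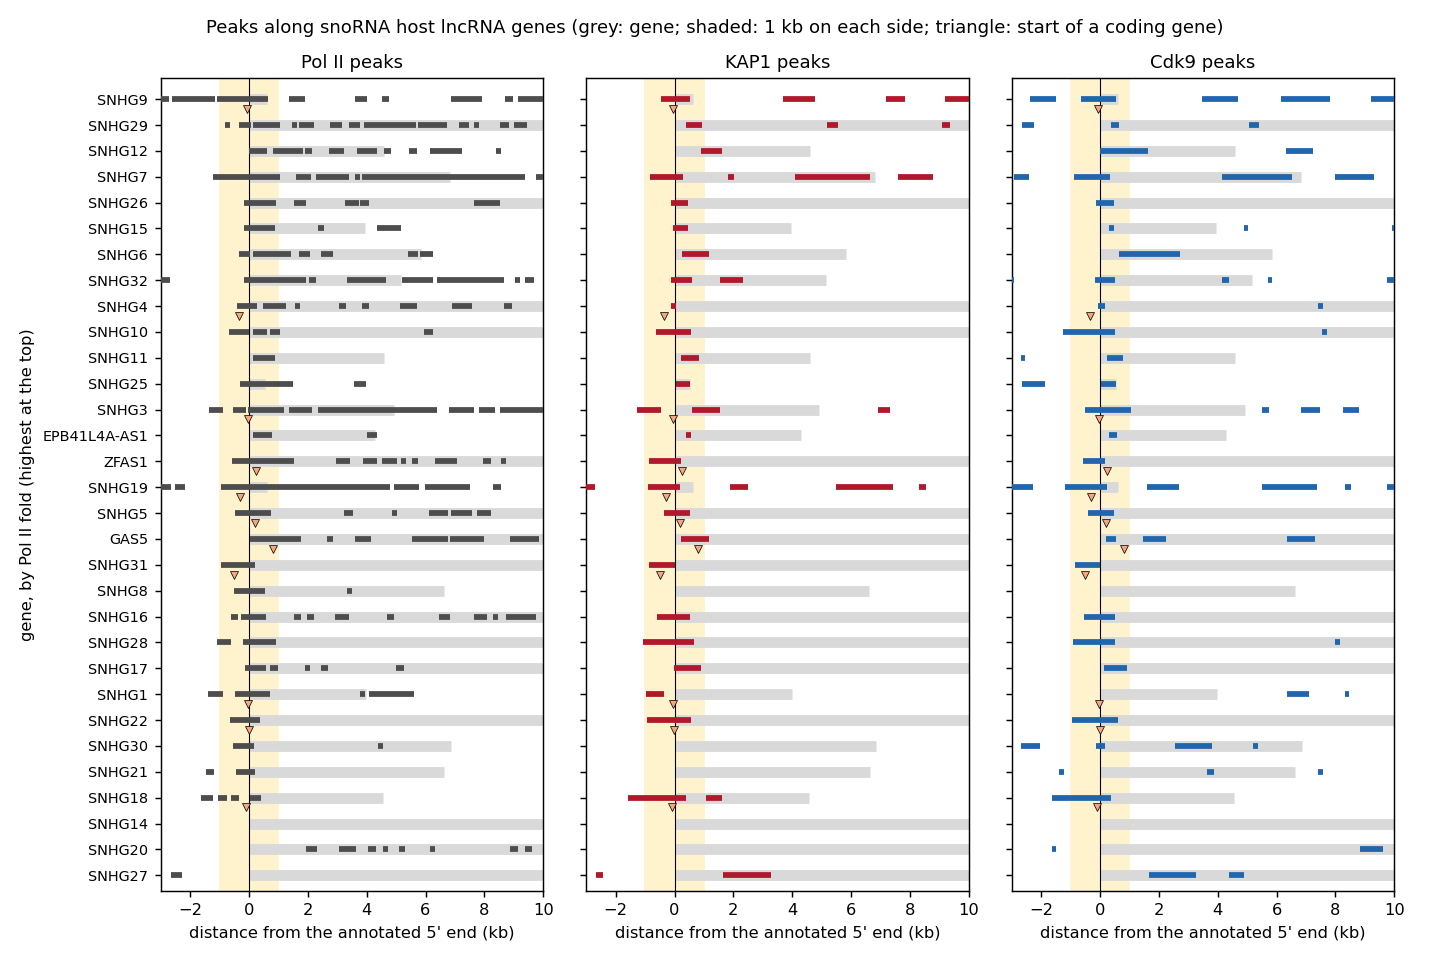
Pol II, KAP1 and Cdk9 peaks (bars) of the 31 host genes from 3 kb before to 10 kb past the annotated 5′ end (horizontal axis, kb), ordered by Pol II fold with the highest at the top. Grey is the gene, the shaded band is 1 kb on each side of the 5′ end and triangles are coding starts, and Pol II peaks recur along SNHG29, ZFAS1 and SNHG4 where few or no KAP1 peaks are drawn.

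A coding gene started within 1 kb of 11 of the 31 hosts, or 35.5% (19.2 to 54.6), against 14.2% of other lncRNA genes. In 8 pairs the coding gene lay on the opposite strand. SNHG9 started 54 bp from RPS2, a ribosomal protein gene, SNHG1 51 bp from SLC3A2, an amino acid transporter subunit, and SNHG22 12 bp from ACAA2, a mitochondrial fatty acid enzyme. SNHG18 started 95 bp from SEMA5A, a semaphorin, and SNHG19 started 293 bp from TRAF7, a ubiquitin ligase. The annotated ends of SNHG31 and BARD1 were 498 bp apart, those of ZFAS1 and ZNFX1 248 bp, and those of GAS5 and ZBTB37 800 bp. The last distance comes from the longest GAS5 transcript, and from the canonical GAS5 start ZBTB37 was 93 bp upstream. In 3 pairs both genes ran the same way: SNHG3 with RCC1 (37 bp), the exchange factor of the GTPase Ran, SNHG4 with MATR3 (350 bp), a nuclear matrix protein, and SNHG5 with the unnamed gene ENSG00000271793 (199 bp).

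The peaks at these promoters were not assigned to one gene of the pair. The same Pol II, KAP1 and Hexim1 peak lay within 1 kb of both starts in 11 of 11 pairs, and the same Larp7 and Cdk9 peak in 10 of 11. The paired starts were 12 to 800 bp apart, so their windows overlap and shared peaks follow largely from the choice of pairs. Not every shared peak covered the coding start. The remaining pair was SNHG1 and SLC3A2, where neither start had Larp7 or Cdk9. All 11 hosts with a coding start had Pol II and KAP1, and 10 had all 5 lists. Of the 20 hosts with no coding start, 17 had Pol II, 14 had KAP1, 15 had Cdk9 and 14 had all 5 lists. The 6 hosts without KAP1 were therefore all among these 20. Other lncRNA genes with a coding start had Pol II at 90.9% and all 5 lists at 80.2%, and those without had Pol II at 23.4%, Cdk9 at 28.0% and all 5 lists at 17.3%. In other lncRNA genes KAP1 was present at 84.1% of those with a coding start and at 3429 of 15613 without one, and the share of the 20 unpaired hosts was 70.0% (45.7 to 88.1). The median KAP1 percentile was 22.7 at hosts with a coding start and 57.3 at hosts without, against 53.4 and 32.8 at other lncRNA genes with and without one. The Pol II percentile was 79.7 at hosts with one and 89.3 at hosts without, against 58.0 and 22.1 at other lncRNA genes. The Larp7 percentile was 37.9 at hosts with a coding start and 33.6 at hosts without.

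The Pol II peak covered the canonical start in 23 of 28 hosts (82.1%), against 73.3% at coding genes and 51.1% at other lncRNA genes. The KAP1 peak covered it in 16 of 25 hosts (64.0%), against 67.5% at coding genes and 51.5% at other lncRNA genes. The Pol II summit lay a median of 86 bp downstream, and 11 of 28 summits (39.3%) were within 200 bp of the start, against 58.4% at coding genes and 30.8% at other lncRNA genes. The middle of the KAP1 peak lay a median of 86 bp upstream (coded -86), against 125 bp downstream at coding genes and a median offset of -101 bp, also upstream, at other lncRNA genes.

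Over all lengths together, Pol II in host gene bodies was about as frequent as in coding snoRNA hosts. KAP1 was less frequent in host bodies than in coding genes, but the shares were close in genes below 10 kb or above 50 kb. For the 28 hosts of at least 2 kb the body was the gene without its first 1 kb, and SNHG9, SNHG19 and SNHG25 were too short to have one. Pol II was present in 23 bodies, or 82.1% (63.1 to 93.9), against 83.7% of coding snoRNA hosts, 67.1% of coding genes and 28.0% of other lncRNA genes. KAP1 was present in 12 bodies, or 42.9% (24.5 to 62.8), against 64.3% of coding snoRNA hosts, 62.0% of coding genes and 30.6% of other lncRNA genes. Larp7 was present in 19 bodies (67.9%), against 92.0%, 86.8% and 59.7% in the same 3 comparison groups. Hexim1 was present in 21 (75.0%), against 96.5%, 89.8% and 64.7%, and Cdk9 in 20 (71.4%), against 86.4%, 79.0% and 48.3%. Pol II without KAP1 was found in 12 bodies (42.9%), against 23.6% of coding snoRNA hosts, 11.6% of coding genes and 6.12% of other lncRNA genes. The order against coding snoRNA hosts depended on length. Between 2 and 5 kb the share was 42.9% of hosts against 100% of coding snoRNA hosts, and between 5 and 10 kb 33.3% against 71.4%. Between 10 and 20 kb it was 83.3% against 26.3%, between 20 and 50 kb 40.0% against 28.0%, and over 50 kb 0% against 11.2%. All 5 lists were present in 10 of the 28 bodies, against 234 of 398 coding snoRNA hosts, 9918 of 18158 coding genes and 2801 of 13202 other lncRNA genes.

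Some of these body peaks were promoter peaks that reached past 1 kb. Without peaks that reached within 1 kb of the 5′ end, Pol II was in 23 bodies and KAP1 in 8 (28.6%, 13.2 to 48.7), against 59.5% of coding snoRNA hosts, 55.6% of coding genes and 26.5% of other lncRNA genes. Among bodies with such a separate Pol II peak, KAP1 was present in 7 of 23 hosts (30.4%, 13.2 to 52.9), against 68.2% of coding snoRNA hosts, 77.3% of coding genes and 72.5% of other lncRNA genes. This choice was added after the data had been seen, and its shares were not split by gene length.

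**Figure D4:**
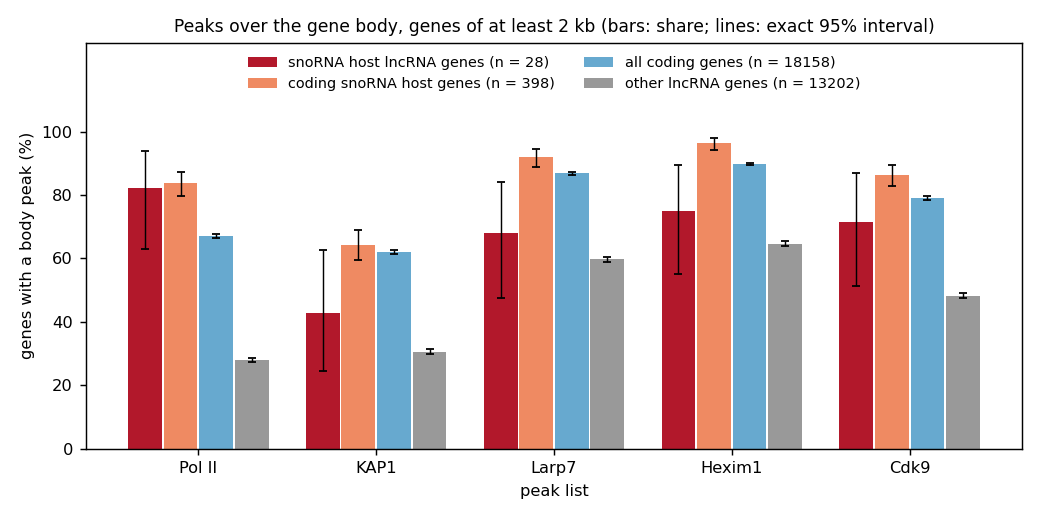
Share of genes of at least 2 kb (vertical axis, percent) with a peak in the gene without its first 1 kb, for each peak list (horizontal axis). Bars are 28 snoRNA host lncRNA genes, 398 coding snoRNA hosts, 18158 coding genes and 13202 other lncRNA genes, lines are exact 95% intervals, and the host bar for KAP1 (42.9%) is lower than that of coding genes (62.0%) while the host bar for Pol II (82.1%) is higher than that of coding genes (67.1%).

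Gene length moved with these shares. In the 2 to 5 kb class Pol II was present in the bodies of 5 of 7 hosts and KAP1 in 3 of 7. All 16 coding snoRNA hosts of that length had Pol II in the body and 0 of 16 had KAP1, which allows a share of up to 20.6% by the exact interval, while coding genes of that length had KAP1 at 45.9%. Between 5 and 10 kb, 5 of 6 hosts had Pol II and 3 of 6 had KAP1, against 27 of 28 and 7 of 28 coding snoRNA hosts. Between 10 and 20 kb, 6 of 6 hosts had Pol II and 1 of 6 had KAP1, against 34 of 38 and 24 of 38 coding snoRNA hosts. Between 20 and 50 kb, 4 of 5 hosts had Pol II and 2 of 5 had KAP1, against 77.3% and 50.7% of coding snoRNA hosts. All coding genes had KAP1 at 50.1% between 5 and 10 kb, 55.8% between 10 and 20 kb and 59.4% between 20 and 50 kb. Over 50 kb, 3 of 4 hosts had KAP1, against 77.6% of coding snoRNA hosts, 74.9% of coding genes and 53.9% of other lncRNA genes.

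ZFAS1 had 11 Pol II peaks that covered 23.1% of its body and no KAP1 peak there. SNHG4 had 8 Pol II peaks over 28.4% of its body and SNHG20 had 8 over 18.4%, again with no KAP1 peak in either. SNHG29 carried 22 Pol II peaks over 20.9% of its body and 3 KAP1 peaks over 2.03%. These 4 genes had dense Pol II and little or no KAP1 along the body. Pol II covered 90.6% of the body of SNHG3, 83.3% of SNHG7, 63.1% of SNHG12, 61.4% of SNHG32 and 52.3% of GAS5. KAP1 covered 47.9% of the body of SNHG7, the most of any host, against 1.79% of GAS5, where the KAP1 peak was the promoter peak of fold 4.16. SNHG14 had the reverse layout, with 3 Pol II peaks over 0.133% of its body, 9 KAP1 peaks, 42 Larp7 peaks, 32 Hexim1 peaks and 20 Cdk9 peaks. SNHG27 had 1 Pol II peak and 6 KAP1 peaks in its body. The long annotated spans of some hosts overlap other genes, and peaks there were not assigned to one of them.

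Few snoRNA sequences lay under peaks. Outside SNHG14, GENCODE placed 28 snoRNAs in the hosts and RefSeq 66. In GENCODE 10 hosts had none and GAS5 had 1, against 11 in RefSeq, so the overlaps cover only part of the host snoRNAs. A Pol II peak overlapped 8 of these 28 (28.6%, 13.2 to 48.7) and a KAP1 peak 3 (10.7%, 2.27 to 28.2), against 7.78% and 1.73% of 463 snoRNAs in coding genes. The 3 with KAP1 were SNORD104 in SNHG25 and SCARNA17 and SCARNA18 in SNHG22, all of them close to the start of the host. Among the others, SNORD12C in ZFAS1, SNORD48 in SNHG32, SNORD60 in SNHG19, SNORA73B in SNHG3, SNORD99 in SNHG12 and SNORD1B in SNHG16 lay under Pol II and not under KAP1. None of 72 snoRNAs of SNHG14 lay under Pol II, which allows a share of up to 4.99% by the exact interval, and 1 lay under KAP1.

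The protein partners of snoRNAs were examined through 16 coding genes of snoRNP core and assembly factors. Pol II was at 15 of their 5′ ends, KAP1 at 9 (56.2%, 29.9 to 80.2), Larp7 at 12, Hexim1 at 14 and Cdk9 at 9. All coding genes had Pol II at 71.8%, KAP1 at 66.2%, Larp7 at 76.4%, Hexim1 at 79.9% and Cdk9 at 70.5%. All 5 lists were at 8 of the 16 (50.0%), against 61.5% of coding genes. Of the 15 with Pol II, 60.0% (32.3 to 83.7) had KAP1, against 88.1% of coding genes with Pol II. The highest KAP1 folds were 7.74 at RUVBL1, an ATPase of the assembly machinery, 6.02 at NHP2, a core protein of box H/ACA particles, and 5.46 at NAF1, their assembly factor. NOP58, a core protein of box C/D particles, had a Pol II fold of 36.3, a Hexim1 fold of 3.41 and no other peak. GAR1, SNU13, NOLC1, RUVBL2 and ZNHIT6 likewise had Pol II without KAP1, with Pol II folds of 29.3, 27.7, 56.5, 30.4 and 8.19. SHQ1 had no peak of any list.

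Nonsense-mediated decay, the pathway that degrades many spliced host RNAs, was represented by 9 genes. Pol II, Larp7 and Hexim1 were at all 9, and KAP1 and Cdk9 were at 8 (88.9%, 51.8 to 99.7), with SMG9 lacking both. Coding genes with Pol II had KAP1 at 88.1%, Cdk9 at 91.5%, Larp7 at 95.4% and Hexim1 at 98.6%, so the decay genes were near that background. The highest KAP1 folds were 6.57 at UPF1, the central helicase, 6.14 at UPF2, its partner, and 5.93 at SMG6, an endonuclease. Among coding snoRNA hosts the KAP1 folds were highest at DYRK3, RC3H2 (8.59) and ADAM10 (8.49), all above SNHG10 (6.89), the highest of the 31 genes. Of the other lncRNA hosts, DANCR had a KAP1 fold of 7.02 and a Pol II fold of 133, from peaks it shares with LINC01618, and ENSG00000285877 had a KAP1 fold of 6.63.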

How the data were processed

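ChIP-seq peak lists of 5 antibodies in HCT116 cells were used, 1 library each. Fixation took 10 min in 1% formaldehyde and 50 min of sonication gave fragments of 100 to 300 bp, per the labels' protocols. Alignment used Bowtie 1.1 with hg19 and peak calling used MACS2, per the submitters' processing notes. Control, settings, duplicates and read depth were not given in the sources used here. The deposited lists hold, per peak, a fold (ratio) over background and the −log10 of its p and q, all as the authors computed them. Not analysed here were the Input, H3K27ac, H3K4me1, H3K4me3 and Ser5P Pol II libraries.

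Genes came from GENCODE release 44 on GRCh37, and snoRNA names also from RefSeq (GRCh38.p14, names and nesting only). An overlap of 1 bp counted. Sequences were read from the GRCh37 genome. Shares carry exact (Clopper-Pearson) 95% intervals, computed with Python 3.11.15 and scipy 1.17.1, and the counting was checked on simulated peaks. Genes with no canonical transcript (251) used the annotated end. The hosts, comparison lists and alternatives were chosen with earlier results of these data known. All 31 hosts are named with their folds. Described further are those that lack Pol II, KAP1 or Cdk9, the 4 highest per list, those with a coding start within 1 kb, GAS5, ZFAS1, EPB41L4A-AS1, and the 3 of highest KAP1 fold of each comparison list. Genes named for body peaks, motifs or snoRNAs, and snoRNP and decay genes without KAP1, were chosen after their values were seen.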

Additional observations from a re-analysis of the deposited data

How the results depend on the processing

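No paired analysis was possible because each antibody had 1 library and no result comes from a test. Over 14 results, 116 values were computed under an alternative, of which 84 stayed inside the exact interval of the reported share and 32 did not. When peaks needed a −log10 q of 5 or more, 19.4% of host 5′ ends had KAP1 (coding genes 25.5%). Larp7 was then at 45.2% (coding genes 49.3%) and Hexim1 at 77.4% (coding genes 69.3%). Cdk9 was at 16.1% (coding genes 15.5%) and all 5 lists at 9.68% (coding genes 9.59%). Among hosts with Pol II, KAP1 was then at 21.4% (coding genes 36.3%) and Cdk9 at 17.9% (coding genes 22.1%). The 6 hosts that kept KAP1 were SNHG6, SNHG7, SNHG10, SNHG11, SNHG12 and SNHG32. In the host bodies that threshold gave KAP1 at 14.3%, Larp7 at 25.0%, Hexim1 at 39.3% and Cdk9 at 7.14%. With the 20000 peaks of highest −log10 p per list, KAP1 was at 51.6% (coding genes 43.2%), Larp7 at 25.8%, Hexim1 at 61.3%, Cdk9 at 54.8% and all 5 at 19.4% (coding genes 17.0%). KAP1 was then at 55.6% of hosts with Pol II (coding genes 65.4%) and Cdk9 at 59.3% (coding genes 64.6%). The bodies then gave Pol II at 42.9%, KAP1 at 21.4%, Larp7 at 10.7%, and Hexim1 and Cdk9 at 17.9%. Both choices keep fewer peaks by construction. A 2 kb window gave Larp7 and Hexim1 at 100% (coding genes 80.7% and 84.1%). The start of any transcript gave Pol II at 100% (coding genes 78.6%). Hosts with a GENCODE snoRNA on their strand had Hexim1 at 100% (coding snoRNA hosts 88.4%). Those of them with Pol II had Cdk9 at 100% (coding snoRNA hosts 91.9%). With body peaks over 1 kb from any transcript start, Pol II was at 57.1%, KAP1 at 17.9%, Hexim1 at 53.6% and Cdk9 at 50.0%. The body shares in this paragraph were counted for hosts only, so they are not set against other genes. The causes of the other shifts were not tested.

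Read depth, control and replicates are not known here, so a missing peak means only that none was deposited, and shares of lists of different length do not rank the factors. Whether SNHG14, SNHG20 and SNHG27 have Pol II depends on which annotated start is used.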
